A study of Rattus norvegicus with 12 samples.

Results

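The unfolded protein response genes of the endoplasmic reticulum (ER) were followed in livers of adrenalectomized rats given dexamethasone or vehicle. They were taken as every probe whose gene name in the scanner files, without the suffix _predicted or _mapped, was Hspa5, Xbp1, Ern1, Atf6, Dnajb9, Herpud1, Pdia4, Hsp90b1, Sdf2l1 or Calr. Of the 10 names, 6 were found in this way, with 8 probes among 24217 measured genes (Atf6, Calr, Dnajb9, Herpud1, Hspa5 and Pdia4). Another 3 genes, with 4 probes, stood on the arrays under other names and were matched by identifier: Hsp90b1 (file name Tra1_predicted, by accession), Sdf2l1 (an Ensembl transcript, by gene identifier) and Ern1 (RGD1559716_predicted, by an older symbol). They are given beside the 6. Counts of genes called after dexamethasone are stated for the 6 and for all 9. Counts between the sexes and counts of non-overlap are stated for the 6 alone. The expression of Xbp1 was not analysed here. All 12 probes stood well above background on all 12 arrays, so none of these genes was lost to the filter on dim probes.

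There were 4 groups of 3 arrays: females given dexamethasone, females given vehicle, males given dexamethasone and males given vehicle. All animals were adrenalectomized adult Sprague-Dawley rats of 8 to 10 weeks without adrenal glucocorticoids of their own, and the labels place the females at "Distrous 1". Dexamethasone, a synthetic glucocorticoid that activates the glucocorticoid receptor, was injected intraperitoneally at 1 mg/kg, the vehicle was 400 µl of phosphate buffered saline, and liver was taken after 6 h. RNA of 3 rats was mixed for each array (9 rats a group), and the p-values therefore measure how mixed samples, not single rats, varied.

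The ER folds and modifies secreted and membrane proteins, a large task in hepatocytes, which secrete most plasma proteins. When unfolded proteins accumulate there, sensors in the ER membrane (IRE1, encoded by Ern1, together with ATF6 and PERK) send signals that raise chaperones, oxidoreductases and degradation factors and slow translation. ATF6, cleaved to a transcription factor, acts with the factor NF-Y on ER stress elements in target promoters, and IRE1 splices the Xbp1 messenger into the form that encodes an active factor. The arrays measured messenger levels and not splicing, cleavage or phosphorylation.

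Slide 5 carried replicate 3 of all groups, and its 4 arrays were dim: 53.0% to 61.8% of their spots passed the scanner software's test against background, compared with 62.7% to 69.7% on the remaining 8. Glucocorticoid targets set the scale of the treatment: Fkbp5 was 23.3-fold higher after dexamethasone in females and 18.0-fold higher in males, and Tat, the tyrosine aminotransferase of the liver, 3.95-fold and 5.51-fold. All 8 hepatocyte markers, Alb and Apoa1 among them, were well above background on all 12 arrays. Among leukocyte markers, 5 of 6 measured T and NK cell genes were called lower after dexamethasone in females and 4 of 6 in males. Of the B and plasma cell genes, 2 of 3 were called lower in each sex. Among all genes 11.7% were called higher and 12.7% lower in females, and 9.34% and 10.8% in males. The summed linear level of the B and plasma cell markers, relative to the 75th percentile of an array, ran from 0.124 to 0.205 after dexamethasone and from 0.479 to 0.862 after vehicle in females, and from 0.143 to 0.206 after dexamethasone and from 0.378 to 0.706 after vehicle in males. That of the T and NK cell markers ran from 1.6 to 1.85 after dexamethasone and from 3.90 to 5.92 after vehicle in females, and from 1.93 to 2.27 and from 3.58 to 4.96 in males. Fewer cells of a type and less RNA per cell cannot be told apart in whole liver. The part of these cells in the results below was not tested. Endothelial markers summed to 10.9 to 25.4 after dexamethasone and 42.9 to 69.9 after vehicle in females, and to 23.5 to 31.6 and 35.2 to 48.7 in males. Of 6 measured endothelial genes, 1 was called higher and 1 lower in females, and 1 higher and 0 lower in males.

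Dexamethasone raised Herpud1 in both sexes, 2.82-fold in females and 2.05-fold in males, and Hsp90b1 1.53-fold in females and 1.51-fold in males. The other 7 measured genes of the response did not pass the test in either sex. Hspa5, the most widely used marker of the response, lay 1.24-fold and 1.32-fold higher without passing. Among the 6 genes found by name, 1 was called higher and 0 lower in each sex at an adjusted p under 0.05 (limma, Benjamini-Hochberg). Over all genes 24.3% were called in females, 11.7% higher and 12.7% lower, and 20.1% in males, 9.34% higher and 10.8% lower. With the 3 genes matched by identifier, 2 of 9 were called higher in each sex and 0 lower. The median log2 difference of the 6 genes was 0.27 in females and 0.20 in males, against -0.08 and 0.01 over all genes. The same medians over all 9 were 0.29 and 0.06.

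**Figure D1:**
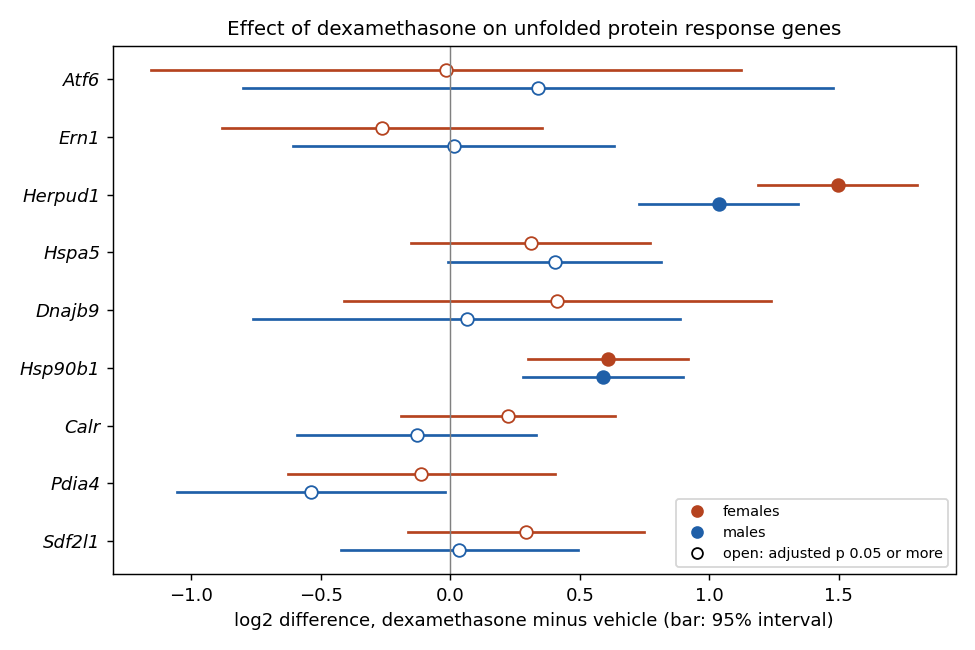
Log2 difference, dexamethasone minus vehicle, of the 9 measured unfolded protein response genes (rows) in females (red, upper point of a row) and males (blue, lower point), with 95% intervals from the limma fit. Filled points passed an adjusted p of 0.05: Herpud1 (1.5 in females, 1.04 in males) and Hsp90b1 (0.61 and 0.59). The intervals of the other genes include 0, except that of Pdia4 in males (-1.05 to -0.02), which was not called.

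Promoters of several of these genes carry elements through which ATF6 and XBP1 are known to act. The motifs were picked as known elements of this response, so their share among these genes is a description and not a test. Windows from 250 bases before to 50 bases after the annotated start were taken from RefSeq (rat build GRCr8), and 8 of the 10 genes had one (not Ern1 or Atf6). The ER stress element (ERSE: CCAAT, 9 bases of any kind, CCACG, on either strand) lay in 4 of these 8 windows, and in 21 of 27457 windows over all genes (0.0765%). A second form (ERSE-II: ATTGG, 1 base of any kind, CCACG) lay in the Herpud1 window and in 15 of all windows (0.0546%). In all, 5 of 8 windows held one of the 2 forms, against 0.131% of all windows. The windows of Dnajb9, Pdia4 and Sdf2l1 held neither. The elements follow, 5′ to 3′ on the strand that matches, with the defining bases in capitals.
Hspa5 ERSE: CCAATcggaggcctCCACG
Xbp1 ERSE: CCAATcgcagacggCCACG
Herpud1 ERSE-II: ATTGGgCCACG
Hsp90b1 distal ERSE: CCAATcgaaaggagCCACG
Hsp90b1 proximal ERSE: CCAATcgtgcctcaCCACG
Calr ERSE: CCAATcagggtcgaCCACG

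Counted from the start, these elements lay at -43 to -25 in Hspa5, -65 to -47 in Xbp1, -124 to -114 in Herpud1, -176 to -158 and -72 to -54 in Hsp90b1, and -232 to -214 in Calr. Those of Calr and the proximal one of Hsp90b1 were on the strand opposite to the gene. All 5 copies of the 19-base ERSE share the sequence outside the 9-base spacer by construction, and 5 to 7 of the 9 spacer bases were G or C. By exact letters, the windows of the 2 genes that rose held ERSE-II (Herpud1) and 2 copies of ERSE (Hsp90b1). Those of Hspa5 and Calr, which were not called, held 1 ERSE each. Inexact copies of the elements were not counted, and a link between element and response was not tested. The sequence CCACGT, an ATF6 and XBP1 core, lay in the windows of Herpud1, where it overlaps the ERSE-II, and of Dnajb9, and in 8.1% of all windows. The longer unfolded protein response element (TGACGTGG) lay in none of the 8 windows and in 0.637% of all. A full palindromic glucocorticoid response element (AGAACA, 3 bases of any kind, TGTTCT) also lay in none, and in 0.00728% of all windows. These are matches of letters within these windows, not measured binding.

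**Figure D2:**
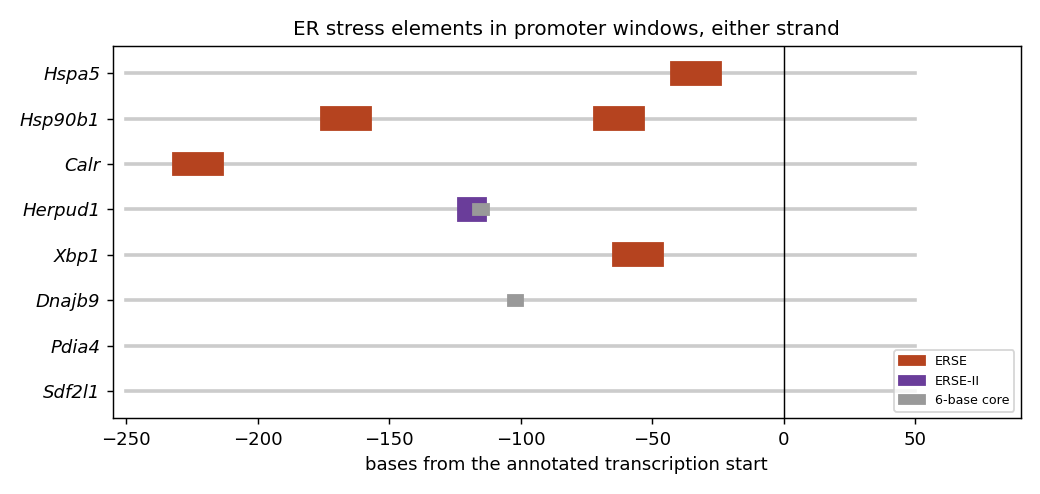
Position of ER stress elements in the promoter windows of 8 unfolded protein response genes, in bases from the annotated start (0 line), on either strand. ERSE (red) lies in Hspa5, Hsp90b1, Calr and Xbp1, ERSE-II (purple) in Herpud1, and the 6-base core (grey) in Herpud1 and Dnajb9.

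The 250 bases before the start are given for the 2 genes that rose and for Hspa5, in the direction of the gene, with the bases of the elements in capitals, as they read on that strand. They lie at chr19:10614708-10614957 on the minus strand (Herpud1), chr7:23012294-23012543 on the minus strand (Hsp90b1) and chr3:38452766-38453015 on the plus strand (Hspa5), all in GRCr8.
Herpud1: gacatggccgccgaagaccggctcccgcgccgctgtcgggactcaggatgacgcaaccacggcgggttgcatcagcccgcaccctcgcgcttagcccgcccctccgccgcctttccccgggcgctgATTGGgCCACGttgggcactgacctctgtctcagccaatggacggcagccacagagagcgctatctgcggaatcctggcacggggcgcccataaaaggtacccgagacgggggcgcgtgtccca
Hsp90b1: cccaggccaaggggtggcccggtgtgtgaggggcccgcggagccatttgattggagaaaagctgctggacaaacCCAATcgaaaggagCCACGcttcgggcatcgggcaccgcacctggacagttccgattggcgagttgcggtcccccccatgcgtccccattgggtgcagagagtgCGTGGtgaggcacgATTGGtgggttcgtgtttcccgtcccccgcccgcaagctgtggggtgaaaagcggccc
Hspa5: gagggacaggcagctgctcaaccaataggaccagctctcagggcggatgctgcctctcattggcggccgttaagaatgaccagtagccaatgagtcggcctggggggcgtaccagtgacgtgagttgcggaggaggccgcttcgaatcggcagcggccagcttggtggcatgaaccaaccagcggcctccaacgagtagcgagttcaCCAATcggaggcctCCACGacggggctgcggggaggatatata

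Among the sensors, neither Atf6, whose protein is released from the ER to activate chaperone genes, nor Ern1, the kinase and ribonuclease IRE1, was called. Levels below are log2 intensities relative to the 75th percentile of the array, and levels of different probes are not compared. Atf6 read 2.50, 2.38 and 3.17 in females after dexamethasone, against 2.08, 2.31 and 3.71 after vehicle, and 2.06, 2.75 and 3.91 in males after dexamethasone, against 2.39, 2.34 and 2.97 after vehicle. In each group the highest value was the array of slide 5, and the groups overlapped. The slide 5 arrays ran from 2.97 to 3.91 and the other 8 from 2.06 to 2.75, so the slide separated the arrays of this probe and the treatment did not. The difference was -0.02 ± 0.51 in females (SE, adjusted p = 0.986) and 0.34 ± 0.51 in males (adjusted p = 0.729), with a 95% interval in females of -1.15 to 1.12. Without male dexamethasone 3 alone, the male difference was -0.16, and it was called under none of the 23 alternatives.

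Ern1 read 2.17, 1.67 and 1.59 in females after dexamethasone, against 2.07, 2.05 and 2.09 after vehicle. It read 1.75, 1.98 and 1.56 in males after dexamethasone, against 2.32, 1.81 and 1.12 after vehicle. The 3 female vehicle arrays lay close together and inside the range of the dexamethasone arrays, and the male groups overlapped too. The difference was -0.26 ± 0.28 in females (adjusted p = 0.529) and 0.01 ± 0.28 in males (adjusted p = 0.983), with an interval in males of -0.61 to 0.63.

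**Figure D3:**
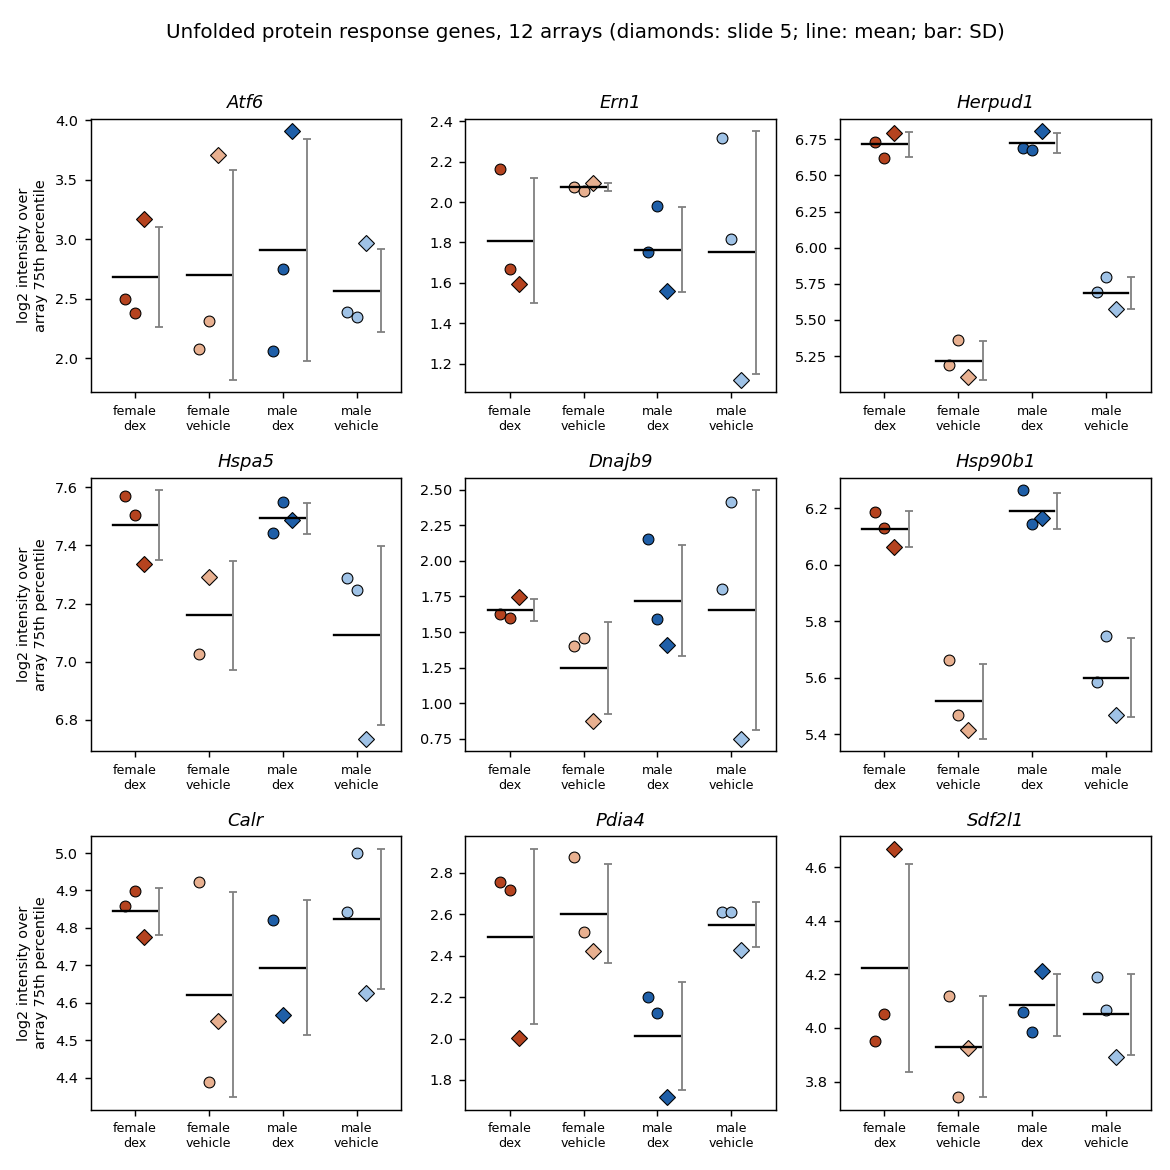
Log2 intensity over the 75th percentile of the array (y axis) of the brightest probe of 9 unfolded protein response genes on each array, by group (x axis). Points are arrays, diamonds those of slide 5, lines the means and bars the SD. Herpud1 and Hsp90b1 separate dexamethasone from vehicle in both sexes, and the diamonds of Atf6 stand above the other arrays of their groups. Hspa5 in females after vehicle and Calr in males after dexamethasone have 2 arrays.

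Herpud1, an ER membrane protein that brings the degradation machinery together and recruits ubiquilins, gave the clearest response. It read 6.73, 6.62 and 6.79 in females after dexamethasone, against 5.19, 5.36 and 5.10 after vehicle. In males it read 6.69, 6.68 and 6.81 after dexamethasone, against 5.69, 5.80 and 5.57 after vehicle. Every dexamethasone array lay above every vehicle array of its sex. Herpud1 rose by 1.5 ± 0.14 in females (adjusted p = 6.6e-05) and by 1.04 ± 0.14 in males (adjusted p = 5.37e-04). Both calls held in all 23 alternative settings, with differences from 1.34 to 1.62 in females and from 0.83 to 1.09 in males. Within slide 5, which held all 4 groups, the differences were 1.69 in females and 1.23 in males, and within slide 1 0.89 in males.

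After dexamethasone the female and male arrays of Herpud1 overlapped, with a female minus male difference of -0.01 ± 0.14 (interval -0.32 to 0.30, adjusted p = 0.986). After vehicle the female arrays (5.10 to 5.36) lay below the male arrays (5.57 to 5.80), by -0.47 ± 0.14, with an adjusted p of 0.183 over all genes. The difference between the sexes in the effect of dexamethasone was 0.46 ± 0.20, with a 95% interval of 0.03 to 0.89, an unadjusted p of 0.0399 and an adjusted p of 0.484, so it did not pass. A second, dimmer Herpud1 probe gave 5.38, 5.51 and 5.51 in females after dexamethasone, against 4.09, 4.11 and 3.24 after vehicle. It gave 5.70, 5.28 and 5.23 in males after dexamethasone, against 4.18, 4.86 and 4.11 after vehicle. Its groups did not overlap in either sex, and in the fit of every probe it rose by 1.65 ± 0.28 in females (adjusted p = 0.00198) and by 1.02 ± 0.28 in males (adjusted p = 0.0255).

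**Figure D4:**
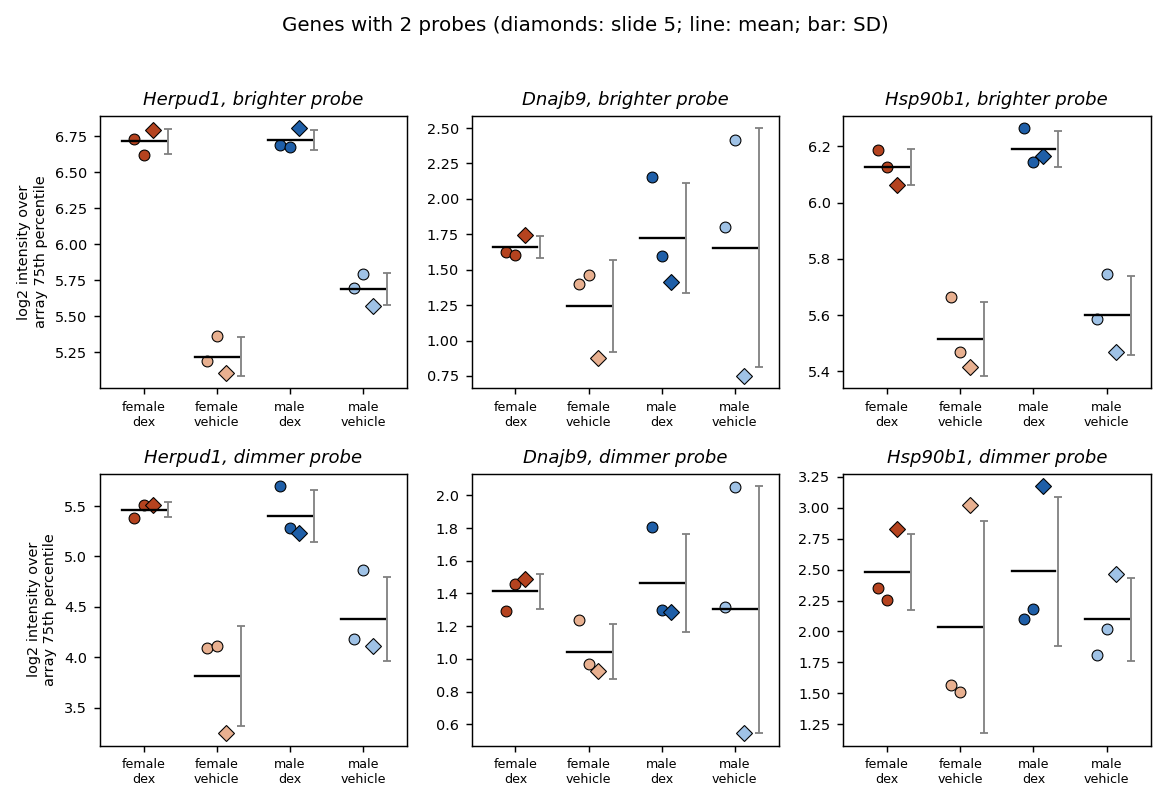
Log2 intensity over the 75th percentile of the array for the brighter (top) and dimmer (bottom) probe of Herpud1, Dnajb9 and Hsp90b1, by group. Points are arrays, diamonds those of slide 5, lines the means and bars the SD. Both Herpud1 probes separate dexamethasone from vehicle, and for Hsp90b1 only the brighter probe does, the diamonds of the dimmer one standing above the other arrays.

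Hspa5 encodes BiP, the main Hsp70 chaperone of the ER, which also holds the sensors inactive. It read 7.57, 7.51 and 7.34 in females after dexamethasone, against 7.03 and 7.29 after vehicle, where 1 spot was flagged by the scanner software and dropped. In males the values were 7.44, 7.55 and 7.49 after dexamethasone, against 7.29, 7.25 and 6.73 after vehicle. The groups did not overlap in either sex, but in females the gap was narrow and in males the lowest vehicle array was that of slide 5. The difference was 0.31 ± 0.20 in females (adjusted p = 0.301, interval -0.15 to 0.77) and 0.40 ± 0.18 in males (adjusted p = 0.167, interval -0.01 to 0.82). Within slide 5 it was 0.04 in females and 0.75 in males, and within slide 1 0.20 in males. Non-overlap was common in these data, in 43.1% of all genes in females and 35.1% in males, and of the 6 genes found by name it held for 3 in each sex (Dnajb9, Herpud1 and Hspa5 in females, Herpud1, Hspa5 and Pdia4 in males).

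Dnajb9, an ER J-domain protein that works with BiP and is known to hold IRE1 inactive, read 1.63, 1.6 and 1.75 in females after dexamethasone, against 1.40, 1.46 and 0.87 after vehicle. Male livers gave 2.16, 1.59 and 1.41 after dexamethasone, against 1.80, 2.42 and 0.75 after vehicle. The female groups did not overlap, and the male vehicle arrays spread on both sides of the dexamethasone arrays. The difference was 0.41 ± 0.37 in females (adjusted p = 0.452) and 0.06 ± 0.37 in males (adjusted p = 0.938). Its second probe gave 0.37 ± 0.32 in females (adjusted p = 0.437) and 0.16 ± 0.32 in males (adjusted p = 0.802), again with groups apart in females.

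Hsp90b1 encodes GRP94, the Hsp90 chaperone of the ER. Its brighter probe read 6.19, 6.13 and 6.06 in females after dexamethasone, against 5.66, 5.47 and 5.42 after vehicle. It read 6.26, 6.14 and 6.16 in males after dexamethasone, against 5.58, 5.75 and 5.47 after vehicle. All dexamethasone arrays lay above all vehicle arrays in both sexes. Hsp90b1 rose by 0.61 ± 0.14 in females (adjusted p = 0.0101) and by 0.59 ± 0.14 in males (adjusted p = 0.0132), and the sexes differed by 0.02 ± 0.20 in this effect (interval -0.42 to 0.46). Within slide 5 the differences were 0.65 in females and 0.70 in males.

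The Hsp90b1 calls were less firm than those of Herpud1. They did not pass after quantile normalization (adjusted p 0.0736 in females, 0.0755 in males), in the authors' deposited value table (0.114 and 0.178), or when its 2 probes were averaged (0.109 and 0.159). The male call was also lost without male vehicle 3 (difference 0.52, adjusted p 0.0508) and without slide 5 (0.0632), and the female call with slide as a block (0.0839). The dimmer probe read 2.35, 2.26 and 2.83 in females after dexamethasone, against 1.57, 1.51 and 3.02 after vehicle, and 2.10, 2.18 and 3.18 in males after dexamethasone, against 1.81, 2.02 and 2.47 after vehicle. Its slide 5 arrays (2.47 to 3.18) stood above all others (1.51 to 2.35), and its difference of 0.45 ± 0.43 in females and 0.39 ± 0.43 in males was not called (adjusted p 0.480 and 0.610).

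Calr encodes calreticulin, the lectin chaperone that holds calcium in the ER. It read 4.86, 4.90 and 4.78 in females after dexamethasone, against 4.92, 4.39 and 4.55 after vehicle. In males it read 4.82 and 4.57 after dexamethasone, where the spot of replicate 1 was flagged and dropped, against 4.84, 5.0 and 4.63 after vehicle. The groups overlapped in both sexes. The difference was 0.22 ± 0.18 in females (adjusted p = 0.411) and -0.13 ± 0.21 in males (adjusted p = 0.744).

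Pdia4, the protein disulfide isomerase ERp72, lay lower in males without passing the test. It read 2.20, 2.12 and 1.72 in males after dexamethasone, against 2.61, 2.61 and 2.42 after vehicle, without overlap. In females it read 2.76, 2.72 and 2.0 after dexamethasone, against 2.87, 2.51 and 2.42 after vehicle, with overlap. The difference was -0.54 ± 0.23 in males (adjusted p = 0.141) and -0.11 ± 0.23 in females (adjusted p = 0.764). The male difference lay between -0.63 and -0.39 in the 23 alternative settings, and passed in 2 of them, with slide as a random block (adjusted p 0.0271) and with a block that sets arrays of the same replicate number side by side (0.0344). Sdf2l1, a partner of ER J-domain proteins, read 3.95, 4.05 and 4.67 in females after dexamethasone, against 4.12, 3.74 and 3.93 after vehicle, and 4.06, 3.99 and 4.21 in males after dexamethasone, against 4.19, 4.07 and 3.89 after vehicle. Its groups overlapped, with differences of 0.29 ± 0.21 (adjusted p = 0.327) and 0.04 ± 0.21 (adjusted p = 0.938).

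Between the sexes, 0 of the 6 genes found by name were called after dexamethasone or after vehicle, against 2.31% and 1.71% of all genes (limma). Of all genes, 1.28% were called higher and 1.04% lower in females after dexamethasone, and 0.743% and 0.966% after vehicle. At an unadjusted p under 0.05 there were 0 after dexamethasone and 1 after vehicle (Herpud1). The groups of the 2 sexes did not overlap for 0 of 6 after dexamethasone (23.1% of all genes) and for 1 of 6 after vehicle (15.6%). The effect of dexamethasone was called different between the sexes for 0 of 6 genes, with 1 at an unadjusted p under 0.05, and for 7 of all genes (0.0289%). For these genes the interval of that difference was as wide as -1.97 to 1.26 (Atf6).

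Across the 11 arrays with a value for Hspa5, the members nearest to it were Hsp90b1 (Pearson r = 0.77) and Herpud1 (0.72), followed by Dnajb9 (0.45), Ern1 (0.41), Calr (0.14 over 10 arrays), Sdf2l1 (0.13), Atf6 (0.04) and Pdia4 (-0.27). The genes with a symbol nearest to Hspa5 were Pygo2 (0.97), Sec23ip (0.96), Hars1 (0.95, named Dnd1 in the files), Tdg (0.94) and Tmed9 (0.93). Tmed9 carries cargo between ER and Golgi, and Sec23ip encodes a binding partner of a COPII coat protein at ER exit sites. These values describe 11 arrays that share the treatment and the slides, and carry no test.

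The rest of the pathway was described with 6 lists of 94 genes, 83 of them measured, apart from the genes above. In females 9 were called higher and 4 lower, where 11.7% and 12.7% of all genes were, and in males 8 higher and 2 lower, where 9.34% and 10.8% of all genes were. The higher counts are near those shares of 83 genes, and the lower counts are below them. Their median difference was 0.25 in females and 0.05 in males, against -0.08 and 0.01 over all genes. Female dexamethasone arrays 1 and 2 lay on slide 4 and female vehicle arrays 1 and 2 on slide 2. With slide as a fixed block 8 of the female calls in these lists did not pass, those of Herpud2, Edem2, Ddit3, Atf4, Creb3l1, Rtcb, Pdia5 and Ssr2 (adjusted p 0.083 to 0.237). The list with most calls was ER-associated degradation, which returns misfolded proteins to the cytosol for the proteasome and to which Herpud1 belongs by function. Of 15 measured genes 4 were called higher and 0 lower in each sex (Edem1, Ube2g2, Herpud2 and Edem2), where 11.7% of all genes were called higher in females and 9.34% in males, with a median of 0.52 in females and 0.31 in males. Herpud2, Edem2, Ssr2, Qsox1 and Atf3 are named as the remaining called genes of the lists, added after their values were seen.

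**Figure D5:**
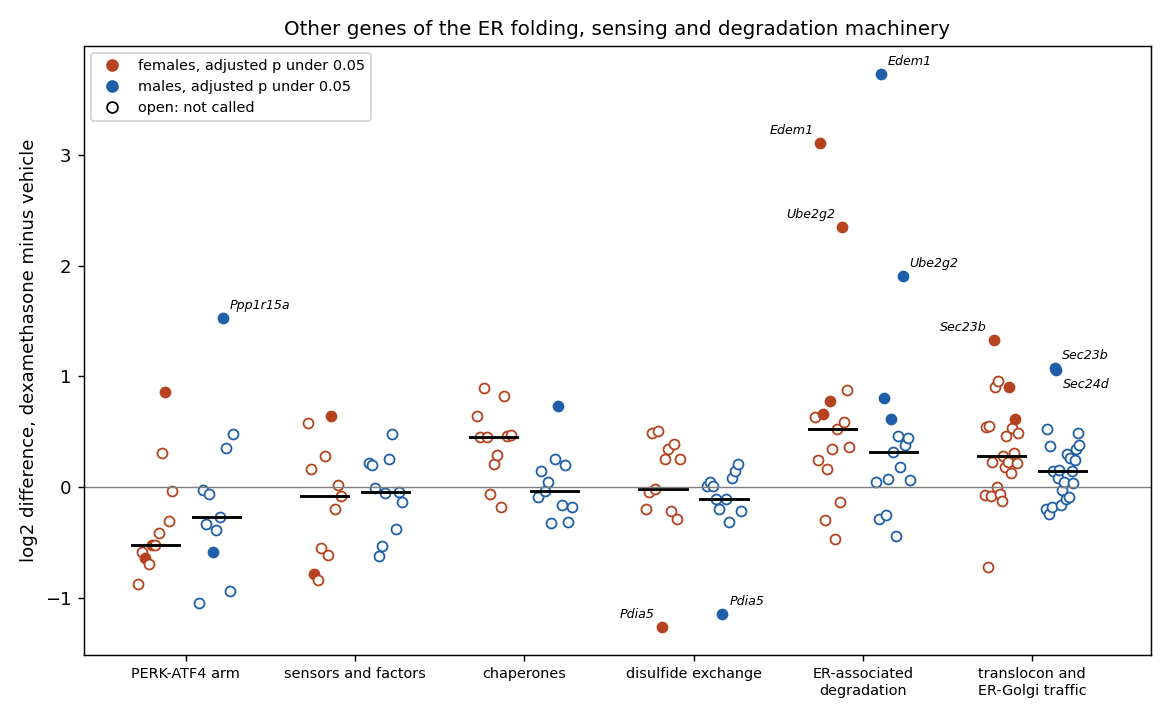
Log2 difference, dexamethasone minus vehicle (y axis), of 83 further genes of the ER folding, sensing and degradation machinery in 6 lists (x axis), in females (red, left) and males (blue, right). Filled points passed an adjusted p of 0.05, bars are list medians. Edem1 and Ube2g2 in the degradation list stand highest in females, and Edem1, Ube2g2 and Ppp1r15a in males.

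Edem1, a lectin of the ER that marks misfolded glycoproteins for degradation, read 9.54, 9.42 and 9.62 in females after dexamethasone, against 6.43, 6.30 and 6.52 after vehicle. Male livers gave 9.67, 9.76 and 10.0 after dexamethasone, against 6.13 and 6.02 after vehicle, with replicate 1 flagged and dropped. It rose 8.64-fold in females (log2 difference 3.11 ± 0.15, adjusted p = 3.76e-06) and 13.3-fold in males (3.73 ± 0.17, adjusted p = 3.48e-06). The file names this gene RGD1563633_predicted, and a second probe gave 10.9-fold in females and 10.5-fold in males, both called. Another, dim probe was not called in females (7.74-fold, adjusted p = 0.0976). In males it ran from 1.85 to 2.20 after dexamethasone, against -6.38, -0.92 and -0.51 after vehicle, and no fold is given because the lowest of these was not well above background and sets the mean.

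Ube2g2, the ubiquitin-conjugating enzyme of the same pathway, read 2.89, 3.19 and 3.15 in females after dexamethasone, against 0.85, 0.94 and 0.38 after vehicle. In males it read 3.36, 2.71 and 2.66 after dexamethasone, against 0.82, 1.77 and 0.43 after vehicle. Its groups did not overlap, and it rose 5.09-fold in females (adjusted p = 6.91e-04) and 3.74-fold in males (adjusted p = 0.0025). The calls of Edem1 and Ube2g2 held in all alternative settings. Herpud2, a homologue of Herpud1, rose by 0.78 and 0.61, and Edem2 by 0.66 and 0.81, in females and males. The Herpud2 call in males was lost without male dexamethasone 1, male dexamethasone 2 or male vehicle 2 (adjusted p 0.0535 to 0.0588). The Edem2 call was lost in males without male dexamethasone 2 or male vehicle 3 (0.0551 to 0.0559), and in females without female dexamethasone 1 or 2 or any female vehicle array (0.064 to 0.117). Sel1l, the scaffold of the main ER ubiquitin ligase, was not called, at -0.47 in females and -0.44 in males.

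The PERK arm, in which ATF4 and CHOP (Ddit3) follow phosphorylation of eIF2α, had a median difference of -0.53 in females and -0.27 in males over 11 measured genes. In females 1 was called higher and 2 lower, and in males 1 higher and 1 lower, so 8 and 9 of the 11 were not called. Over all genes 11.7% were called higher and 12.7% lower in females, and 9.34% and 10.8% in males. Ddit3, the transcription factor CHOP, read -0.25, -0.15 and -0.23 in females after dexamethasone, against 0.13, 0.45 and 0.36 after vehicle. In males it read -0.48, -0.36 and -0.39 after dexamethasone, against 0.32, -0.02 and 0.24 after vehicle. It fell by 0.53 in females (adjusted p = 0.0267) and by 0.59 in males (adjusted p = 0.0182), without overlap. The female call was lost without any 1 female dexamethasone array, female vehicle 2 or female vehicle 3 (adjusted p 0.0563 to 0.103), and the male call without male dexamethasone 1, male vehicle 1 or male vehicle 3 (0.0573 to 0.0633). Without slide 5 neither passed (0.0981 and 0.0995). Atf4 itself fell by 0.64 in females (adjusted p = 0.0346), a call lost when any 1 female array was left out (0.0507 to 0.116), and lay at -0.33 in males (adjusted p = 0.283).

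Ppp1r15a encodes GADD34, which reverses the phosphorylation of eIF2α. It read 2.27, 2.43 and 1.76 in males after dexamethasone, against 0.66, 0.92 and 0.29 after vehicle, and rose 2.88-fold (adjusted p = 0.00181). In females it read 1.09, 0.81 and 1.16 after dexamethasone, against 0.55, 1.11 and 0.48 after vehicle, with overlap (1.23-fold, adjusted p = 0.408). The difference between the sexes in this effect was -1.22 ± 0.35 and did not pass (adjusted p = 0.332). Its constitutive homologue Ppp1r15b rose 1.81-fold in females (adjusted p = 0.0324) and lay 1.28-fold higher in males (adjusted p = 0.396). That call was lost without female dexamethasone 1 or 3 or female vehicle 1 or 2 (0.0583 to 0.103). After dexamethasone, Ppp1r15a and Atf3, a stress-induced repressor, were lower in females than in males, by -1.13 and -1.75 (adjusted p 0.0459 and 0.0413). After vehicle neither was called between the sexes. Atf3 then read -1.60, -0.87 and -1.70 in females, against -0.30, 0.57 and -0.89 in males, with a narrow overlap. The Ppp1r15a call was lost without any 1 female dexamethasone array, male dexamethasone 1 or 2, female vehicle 1, or male vehicle 1 or 2 (0.0534 to 0.172). The Atf3 call was lost without any 1 dexamethasone array of either sex, female vehicle 1 or male vehicle 1 (0.0576 to 0.154). With slide as a random block neither passed (0.0626 for Ppp1r15a, 0.0755 for Atf3), nor with slide as a fixed block (0.296 and 0.307), where the Ppp1r15a difference was -0.65.

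Of 11 further sensors and factors, 0 were called in males (adjusted p under 0.05, limma), where 20.1% of all genes were. In females 1 was called higher, Rtcb, the ligase that joins the spliced Xbp1 exons (0.64 ± 0.20, adjusted p = 0.0444), and 1 lower, Creb3l1, an ER membrane transcription factor (-0.78 ± 0.20, adjusted p = 0.017). The Creb3l1 call was lost without female dexamethasone 1 or 2 or female vehicle 2 (0.0519 to 0.0647). The Rtcb call was lost without any 1 female dexamethasone array, female vehicle 1 or 2, male dexamethasone 1 or any 1 male vehicle array (0.054 to 0.14). In males Rtcb lay 0.48 higher (adjusted p = 0.136), and passed with the replicate block (0.0442) and with slide as a fixed (0.0272) or random block (0.0126). Among all genes 24.3% were called in females and 20.1% in males. Of 11 further chaperones, 0 were called in females, at a median of 0.45, and 1 in males, at a median of -0.04. That 1 was Manf, a secreted factor released on ER stress (Armet_predicted in the files), which rose 1.66-fold in males (adjusted p = 0.0251). Its call was lost without male dexamethasone 2 or 3 or male vehicle 3 (0.0707 to 0.085), and without slide 5 (0.0643). Nor did it pass after quantile normalization (0.0624) or in the deposited value table (0.0965). The second Manf probe gave 1.55-fold without passing (adjusted p = 0.0606).

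Among 13 measured genes of disulfide exchange, the 1 call in each sex was Pdia5, a disulfide isomerase, and it fell. Of all genes 24.3% were called in females and 20.1% in males. Pdia5 read 2.20, 2.75 and 2.86 in females after dexamethasone, against 3.88, 4.06 and 3.67 after vehicle. In males it read 2.05, 2.28 and 2.54 after dexamethasone, against 3.47, 3.28 and 3.57 after vehicle. It fell by 1.27 ± 0.21 in females (adjusted p = 0.00198) and by 1.14 ± 0.21 in males (adjusted p = 0.00373). With slide as a fixed block the female difference was -0.97 and did not pass (adjusted p = 0.0937). Of all genes 1.28% were called higher in females than in males after dexamethasone and 0.743% after vehicle. The 1 such gene of the 83, near those shares, was Qsox1, a sulfhydryl oxidase. It lay higher in females by 1.39 after dexamethasone and 1.69 after vehicle (adjusted p 0.0124 and 0.00392). Its call after dexamethasone was lost without female dexamethasone 1 or 2 or male dexamethasone 1 (0.0542 to 0.059). Both Qsox1 calls were lost without slide 5 (0.0554 after dexamethasone, 0.0863 after vehicle) and with slide as a fixed block (0.161 and 0.124).

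In the list of the translocon, signal peptidase and ER-Golgi traffic, 3 of 23 measured genes were called higher in females and 2 in males, and 0 lower in either. Those counts are near the 11.7% and 9.34% of all genes called higher. Sec23b, a COPII coat protein of vesicles leaving the ER, read 2.70, 3.03 and 2.51 in females after dexamethasone, against 1.57, 1.49 and 1.19 after vehicle, and 3.14, 2.62 and 2.48 in males after dexamethasone, against 1.79, 2.22 and 0.99 after vehicle. It rose 2.51-fold in females (adjusted p = 0.0103) and 2.11-fold in males (adjusted p = 0.0305). The male call was lost without male dexamethasone 1 or 2 or male vehicle 1 or 3 (0.0567 to 0.105). Its partner in the coat, Sec24d, rose 2.08-fold in males (adjusted p = 0.0316) and lay 1.87-fold higher in females (adjusted p = 0.0521). Its male call was lost without the same 4 arrays (0.0759 to 0.108). In females, Srp54a of the signal recognition particle rose 1.87-fold (adjusted p = 0.027) and Ssr2 of the translocon 1.53-fold (adjusted p = 0.0202). The Srp54a call was lost without female dexamethasone 1 or 2 or female vehicle 2 or 3 (0.0646 to 0.0888), and the Ssr2 call without female dexamethasone 2 or female vehicle 2 or 3 (0.0539 to 0.0848).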

How the data were processed

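Liver RNA was measured on 12 one-colour Agilent whole-genome rat arrays, 3 in each of 4 groups, each with 500 ng of Cy3-labelled RNA pooled from 3 animals, per the labels. Intensities were the deposited processed signals of Agilent Feature Extraction 9.1, background-subtracted and detrended, per the file headers and the submitters' processing notes. The authors' deposited value table holds log10 intensities whose scaling between arrays is not given in the sources used here. Array medians in it were 1.49 to 1.52, and it served as an alternative only.

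Log2 processed signals were centred on the 75th percentile of each array, after control spots were left out. The 211 outlier spots counted towards that percentile and were dropped afterwards. Probes were kept if 3 or more of the 12 arrays passed the scanner software's background test and each group had 2 or more usable values. The brightest probe stood for a gene. The 4 groups were fitted together with limma 3.58.1 in R 4.3.3, with Benjamini-Hochberg adjustment over 24217 genes and a threshold of 0.05. The number of arrays limits the precision. The fit was checked on simulated data with noise drawn independently for each array. That check does not cover arrays that share a slide. Folds are differences of these log2 values raised to linear scale, and 23 alternative settings were run.

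The members and gene lists were chosen with earlier results of these data known. Genes named from a list were the 2 called genes with the largest rise and the 2 with the largest fall after dexamethasone in each sex, together with treatment controls and the 5 genes most correlated with Hspa5. The remaining called genes of the lists were added after their values were seen. Promoter sequences came from RefSeq, matched by symbol. Protein sequences were not used here.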

Additional observations from a re-analysis of the deposited data

How the results depend on the processing

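Herpud1 was called in both sexes under all 23 alternatives, and of 41 calls of named genes 18 held under all of them. The calls of Hsp90b1 depended on the normalization and on which of its probes was used, as given above. Those of Manf in males and of Edem2 and Ssr2 in females also failed after quantile normalization and in the deposited value table (limma, adjusted p 0.0624 to 0.102). Rtcb in females failed after quantile normalization (0.0527), and Herpud2 in males (0.0609) and Ppp1r15b in females (0.0878) after normexp background correction. Replicate numbers did not pair the arrays: correlations of deviations from the group means between same-numbered arrays ran from -0.00 to 0.53 in the male groups and from 0.07 to 0.18 in the female groups. With the replicate number as a block, or slide as a random block (consensus correlation 0.51), 2 of the 6 unfolded protein response genes found by name were called in males in place of 1, the added one being Pdia4, lower. Without any 1 array, the count of these genes called was 1 in each sex, and 0 in the comparisons between the sexes. The cause of the changes below was not tested.

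Over all genes, 4874 were called in males, against 7712 with slide as a random block and 3664 to 5165 without any 1 array. In females 5894 were called, against 3071 with slide as a fixed block and 3726 to 6047 without any 1 array. The effect of dexamethasone differed between the sexes for 7 genes, for 29 after normexp background correction, for 0 without the filter on dim probes, for 0 without slide 5, and for 0 to 5 without any 1 array. This contrast had 2424 genes at an unadjusted p under 0.05 (limma). Between the sexes after dexamethasone 560 were called, 918 with slide as a random block, 848 with the replicate block, 867 without slide 5, and 297 to 626 without any 1 array. After vehicle 414 were called, 254 with slide as a fixed block, 652 as a random block, 265 without slide 5, and 259 to 402 without any 1 array. Without the filter on dim probes the median of all genes was -0.21 in females and 0.12 in males. Leaving out slide 5 was chosen after seeing the data.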

Other observations

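Promoters of Edem1, Ube2g2, Pdia5 and Sec23b were read for the same motifs, and Manf was looked up but gave no usable window. Those of other named genes that changed, Ppp1r15a and Sec24d among them, were not read. The windows of Edem1 and Sec23b, which rose, held neither ERSE nor ERSE-II. That of Ube2g2 held 1 TGACGTGG and 1 CCACGT, which overlap, at -59 to -52 and -59 to -54 from the start, and that of Pdia5, which fell, held 1 CCACGT at -87 to -82. Neutrophil markers were called lower after dexamethasone for 2 of 3 measured genes in each sex, and Kupffer cell and macrophage markers for 2 of 8. Of 6 measured stellate cell markers, 2 were called lower in females and 1 in males, with medians of -0.55 and 0.06. Among all genes 12.7% were called lower in females and 10.8% in males.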
